A study of Mus musculus with 9 samples.

Results

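Solute carriers are membrane proteins that move sugars, amino acids, organic ions, metals, vitamins and metabolites across the membranes of the cell, the mitochondrion, the lysosome and the Golgi. The genes described here are the protein-coding genes whose name starts with Slc or Slco and a digit and whose counts summed to at least 900 over the 9 libraries, with Slc7a11, Slc10a1 and Slc40a1 left out. There were 182 of them among 42188 genes in the table and among 374 protein-coding genes of these names. A further 189 fell below the count rule, 29 of them with no count in any library. Of the 182 genes, 178 were classed as carriers, including the heavy chain Slc3a2 that pairs with carriers. The other 4, called partner proteins here, encode proteins that are not carriers but have a related name (Slc9a3r1, Slc9a3r2, Slc7a6os and Slc4a1ap). Just inside the rule lay Slc25a26 and Slc26a2 with 908 counts each and Slc2a4 with 936. Just outside it lay Slc25a33 with 884, Slc25a29 with 867 and Slc1a4 with 853. The rule used the level summed over all libraries and no comparison between them. A gene can nevertheless reach 900 counts through a few libraries, and 7 genes (Slc10a6, Slc13a5, Slc15a3, Slc1a5, Slc37a1, Slc7a6 and Slco3a1) would have been under the same mean count in the 6 libraries numbered 2 or 3. Another 27 would have been under it in the 3 libraries numbered 1.

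RNA was sequenced from whole mouse liver in 3 groups of 3 mice. Control mice received phosphate-buffered saline into the tail vein, and the ConA group had 20 mg/kg of concanavalin A, the jack bean lectin used to set off T-cell hepatitis, by the same vein. MSA_ConA mice received 250 mg/kg of MSA, read here as the mesaconate of the study's title, intraperitoneally and, 6 h later, concanavalin A as in the ConA group. Livers were taken 12 h after concanavalin A, and all mice are labelled as male C57BL/6J animals of 8 weeks and 20 to 25 g. No group received MSA alone, so the effect of MSA without concanavalin A is not measured.

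The liver takes up what the gut delivers through the portal vein. On the blood side of hepatocytes, Slco and Slc22 carriers import bile acids, bilirubin, drugs and organic cations, and glucose, amino acid and metal carriers exchange nutrients with the blood. Inside the cell, carriers of the Slc25 family link the cytosol with the mitochondrial matrix in the urea cycle, fatty acid oxidation and nucleotide exchange. Many of the Slc35 family feed nucleotide sugars into the Golgi for glycosylation. Inflammation of the liver is known to lower several hepatocyte uptake carriers and to raise the zinc importer Slc39a14, which belongs to the acute-phase response.

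Every library carries a number from 1 to 3, and the 3 libraries numbered 1 stood apart from the 6 others in ways that go against the labels. All mice are labelled male, yet Xist, which female cells transcribe from their silenced X, ran from 666 to 1130.4 CPM in numbers 2 and 3, with no library of number 1 over 0.485 CPM. Nnt, a gene with a known deletion in C57BL/6J, was at 168 to 266 CPM in numbers 2 and 3 against 29.8 to 34.6 CPM in number 1. The clock genes Arntl and Dbp also divided by number, at 22.0 to 29.5 against 1.35 to 3.59 CPM and 6.01 to 10.3 against 99.7 to 250.4 CPM. The libraries are therefore named by their labels throughout. Differences of number 1 from numbers 2 and 3 cannot be told apart from sex, strain, time of day or handling. Libraries held 13294600 to 17276391 counts, and CPM, the counts scaled to a common library size, use factors computed here by edgeR's trimmed mean of M values, which ran from 0.571 to 1.26. The lowest factors, 0.571 and 0.673, were those of MSA_ConA 1 and ConA 1. Hepatocyte markers were high in every library, with Alb at 64209 to 100083 CPM. In bulk liver, fewer cells of a type and less RNA per cell cannot be told apart.

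Compared per gene length, as FPKM (fragments per kilobase of transcript, scaled to library depth), the most abundant of the 182 transcripts by its mean over the 9 libraries was Slc25a47, a mitochondrial carrier made mainly in liver, at 779.6 FPKM. Its libraries ranged over 101 to 4589 FPKM, and only ConA 1 and MSA_ConA 1 lay above this mean. Next came the glutamine carrier Slc38a3 with a mean of 378 FPKM (228 to 446 FPKM), then the fatty acid carriers and acyl-CoA ligases Slc27a5 with 361 and Slc27a2 with 351 FPKM. Among other classes, the highest mean was 152 FPKM for the scaffold Slc9a3r1 among the partner proteins and 120.1 FPKM for the metal importer Slc39a14. Slc39a14 was at 199.6 FPKM in ConA 1, 715.5 FPKM in MSA_ConA 1 and only 12.7 to 28.9 FPKM elsewhere. The highest class mean was 88.4 FPKM for the glucose 6-phosphate carrier Slc37a4, 46.1 FPKM for the nucleoside carrier Slc29a1 and 45.1 FPKM for the sulfate carrier Slc26a1. Further class leaders were the potassium-chloride carrier Slc12a7 (42.6 FPKM), Slc17a2 of the phosphate carrier family (37.9 FPKM), the nucleotide sugar carrier Slc35d2 (32 FPKM) and the lysosomal carrier Slc46a3 (27.6 FPKM). These are levels and say nothing of a treatment.

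**Figure D1:**
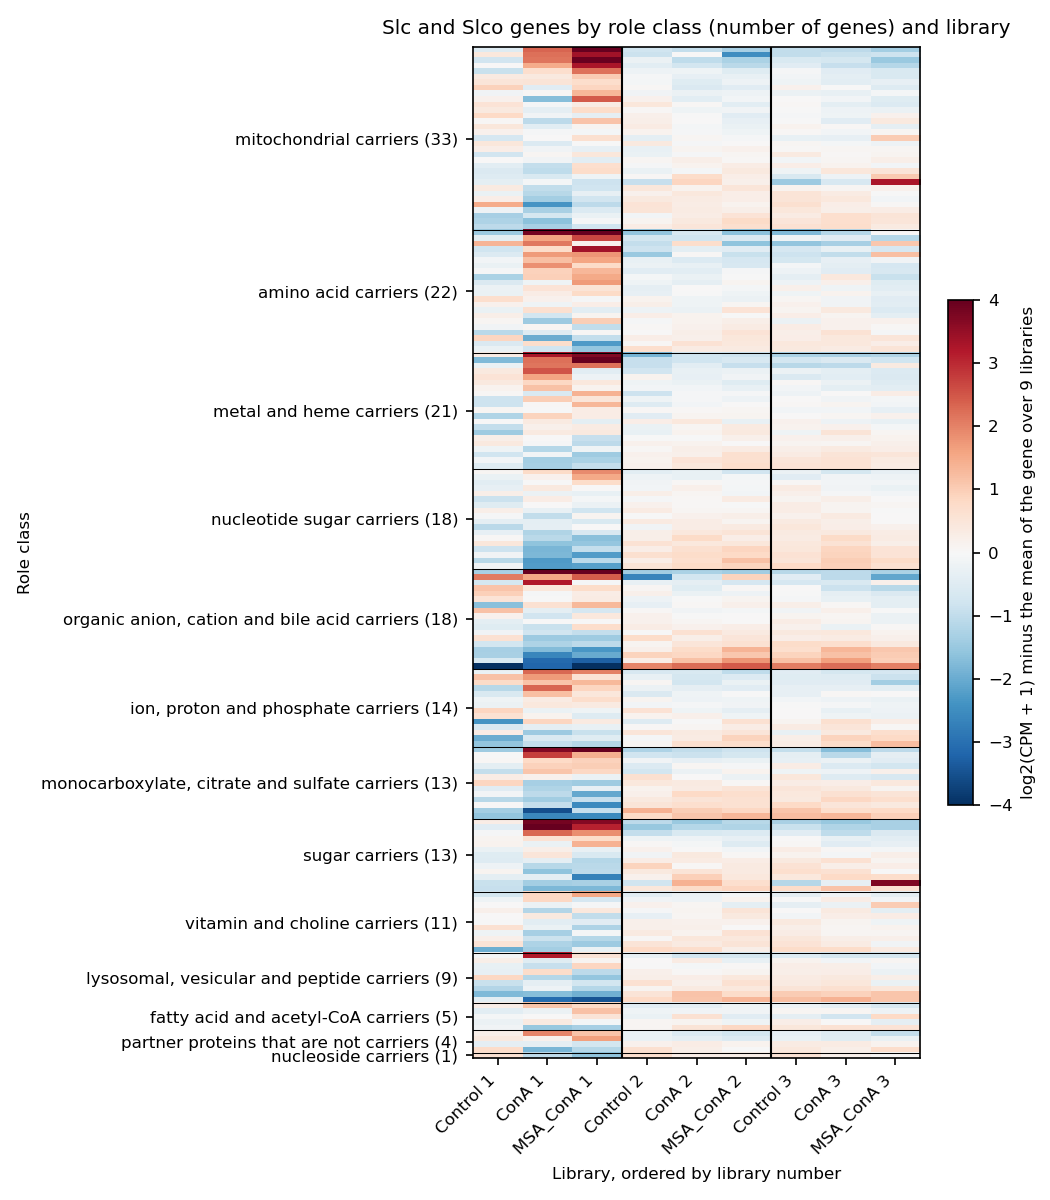
Heat map of the 182 genes (rows, grouped by role class with the number of genes) in the 9 libraries (columns, ordered by library number). Colour gives log2(CPM + 1) minus the gene's mean over the 9 libraries. The strongest colours stand in the columns ConA 1 and MSA_ConA 1, and the columns numbered 2 and 3 are pale in most rows.

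These genes varied widely among the libraries numbered 1 and little among those numbered 2 and 3. The ratio of the highest to the lowest library had a median of 4.11 over the 9 libraries, 2.70 within the 3 numbered 1 and 1.52 within the 6 numbered 2 and 3. Of the 182 genes, 151 stayed within 2-fold in numbers 2 and 3, 54 did so in number 1 and 20 did so over all 9 libraries. The steadiest gene was Slc25a26, which brings S-adenosylmethionine into mitochondria, with a 1.32-fold range. Slc35a2 followed with 1.49-fold and Slc37a4 with 1.53-fold.

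The comparison of ConA with Control asks what concanavalin A did to these transcripts. None of the 181 tested genes passed edgeR's quasi-likelihood test at an adjusted p under 0.05, where percent_called over all 14603 genes was 0. At an unadjusted p under 0.05 there were 6 (3.31%, against 3.86% of all genes), and the smallest adjusted p was 0.9997. Since libraries of each group differ by number, the test's own estimate of spread is wide, and a count of 0 does not show that nothing changed. Among the smallest p upward were those of Slco3a1, an organic anion carrier, at 2.66 (SE 1.04) and the cationic amino acid exchanger Slc7a6 at 5.30 (SE 2.13). Downward they were Slc12a9 at -0.77 (SE 0.28), the mitochondrial glycine carrier Slc25a38 at -0.55 (SE 0.27) and Slc16a11 at -0.58 (SE 0.30). All are log2 fold changes from edgeR. All 3 ConA libraries lay above all 3 controls for 8 genes (4.42%, with percent_called 5.66 over all genes) and below them for 22 (12.2%, with percent_called 6.64).

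Several of the 22 were carriers of mitochondria. Slc25a38 measured 45.4, 43 and 34.2 CPM in Control, 21.8, 31.3 and 30.8 CPM in ConA and 32.7, 32.8 and 28 CPM in MSA_ConA, in each case for libraries 1, 2 and 3 in that order. The ion carrier Slc12a9 measured 58.6, 48.1 and 32.7 CPM in Control, 27, 28.5 and 25.9 CPM in ConA and 28.3, 24.7 and 27.4 CPM in MSA_ConA. Its 3 ConA values, all below every control, overlapped those of MSA_ConA. Slc16a11, a monocarboxylate carrier of hepatocytes, measured 20.6, 26.7 and 23.4 CPM in Control, 19, 16.9 and 11.3 CPM in ConA and 14, 13.9 and 10.4 CPM in MSA_ConA. Here the ConA and MSA_ConA libraries were all below the controls, and the MSA_ConA libraries overlapped those of ConA.

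MSA_ConA against ConA asks what MSA given beforehand changed. No gene passed (percent_called 0 over all genes), 1 of 181 had an unadjusted p under 0.05 (0.552%, against 1.7% of all genes) and the smallest adjusted p by edgeR was 0.99999. The smallest p upward belonged to the mitochondrial coenzyme A carrier Slc25a42 with a log2 fold change of 1.87 (SE 0.78), followed by Slc25a34 at 1.04 (SE 0.47) and the aspartate-glutamate carrier Slc25a12 at 0.70 (SE 0.33). Downward they were the iron importer Slc11a2 at -1.70 (SE 0.77), Slco3a1 at -2.15 (SE 1.02) and the zinc importer Slc39a3 at -0.58 (SE 0.30). No gene was above ConA in all libraries (percent_called 2.33) and 4 were below (percent_called 2.54), namely Slc37a4, Slc6a6, Slc27a4 and Slc39a3. Slc39a3 measured 12.7, 15.2 and 14.2 CPM in Control, 16.3, 17.1 and 10.8 CPM in ConA and 9.35, 10.01 and 10.1 CPM in MSA_ConA.

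MSA_ConA against Control shares its libraries with both comparisons. No gene passed (percent_called 0), 13 of 181 had an unadjusted p under 0.05 (7.18%, against 5% of all genes) and the smallest adjusted p by edgeR was 0.937. The leading genes were Slc25a12 at 1.10 (SE 0.33), the ADP/ATP carrier Slc25a4 at 2.99 (SE 1.04) and Slc7a6 at 5.82 (SE 2.18) upward. Slc16a11 at -0.89 (SE 0.31) and Slc12a9 at -0.79 (SE 0.28) were among the smallest p downward. All MSA_ConA libraries lay above all controls for 10 genes (percent_called 6.44) and below for 14 (percent_called 7.34). DESeq2, limma on the deposited FPKM and the fit with the library number as a block also called 0 of these genes in the 3 group comparisons.

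With the group in the model, 86 of 181 genes differed between number 1 and numbers 2 and 3 (47.5%, with percent_called 38.3 over all genes). Of these, 37 were higher in number 1 (20.4%, with percent_called 19.1) and 49 lower (27.1%, with percent_called 19.2). With plain library totals in place of the trimmed mean, the split became 18 higher and 83 lower, where 44.8% of all genes were called. That scaling moved the median of all genes from -0.10 to -0.81 on the log2 scale. All 49 lower genes and 18 of the 37 higher ones passed under both scalings. Among the untreated libraries alone, Control 1 was below both other controls for 47 of the 49 lower genes and above both for 31 of the 37 higher ones, as a description with no test. Over all 181 tested genes it was below both for 95 and above both for 67. The control libraries also entered the calls, so these counts are no separate check of them. Leaving out MSA_ConA 1 left 23 higher and 41 lower (with 26.8% of all genes called), leaving out ConA 1 left 25 and 33 (26.5%), and leaving out Control 1 left 53 and 63 (53.6%). Every library numbered 1 lay above both others of its group for 32 genes (17.7%, with percent_called 19.6) and below both for 51 (28.2%, with percent_called 25.3).

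A second test asked whether the effect of ConA, the log2 ratio of ConA to Control, differed between number 1 and numbers 2 and 3. It did for 73 of 181 genes (40.3%, with percent_called 31), 36 with a higher ratio in number 1 (19.9%, with percent_called 15.6) and 37 with a lower one (20.4%, with percent_called 15.4). A further test asked the same of the log2 ratio of MSA_ConA to ConA, called the MSA effect below. It differed for 50 genes (27.6%, with percent_called 18.7), 32 higher (17.7%, with percent_called 8.61) and 18 lower (9.94%, with percent_called 10.1). Differences in either effect are on the log2 scale, number 1 minus numbers 2 and 3. These counts and those by number draw on the 7 genes under the rule's mean count in numbers 2 and 3 and the 27 under it in number 1. The membership of those genes rests on values that the tests compare, and no count was made without them. Both tests have 3 residual degrees of freedom and assume that the single library numbered 1 in a group varies like those numbered 2 and 3. The ConA and MSA effects share the ConA libraries, so their values are given side by side and their relation was not tested. With library totals the lower genes of the ConA effect became 66, where 37.6% of all genes were called in either direction. In that setting 27 of the 36 higher and all 37 lower genes still passed, and 23 of 32 and 18 of 18 still passed for the MSA effect. Fewer genes passed for the MSA effect when any single library numbered 2 or 3 was left out, most so without ConA 3.

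**Figure D2:**
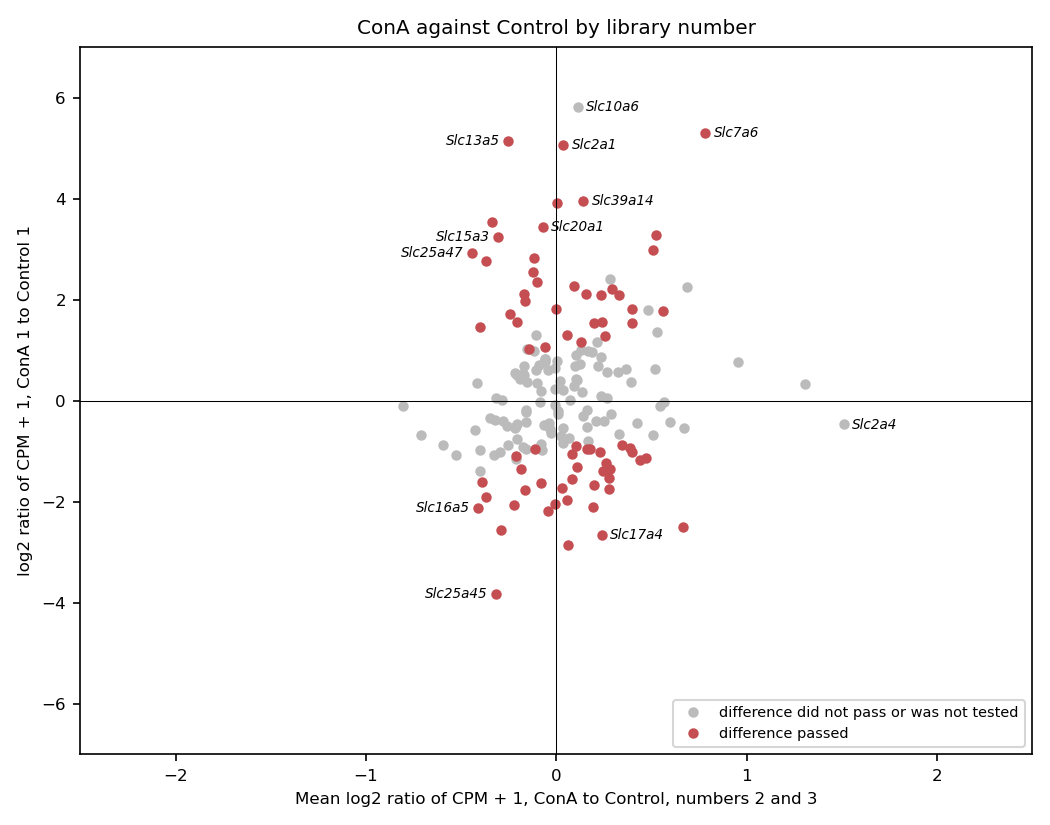
Each point is 1 of the 182 genes, with the mean log2 ratio of CPM + 1 of ConA to Control in numbers 2 and 3 on the x axis and the log2 ratio of ConA 1 to Control 1 on the y axis, which covers a wider range. Red points passed the test of the difference between them. Values ran from -0.80 to 1.51 in numbers 2 and 3 and from -3.82 to 5.82 in number 1.

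**Figure D3:**
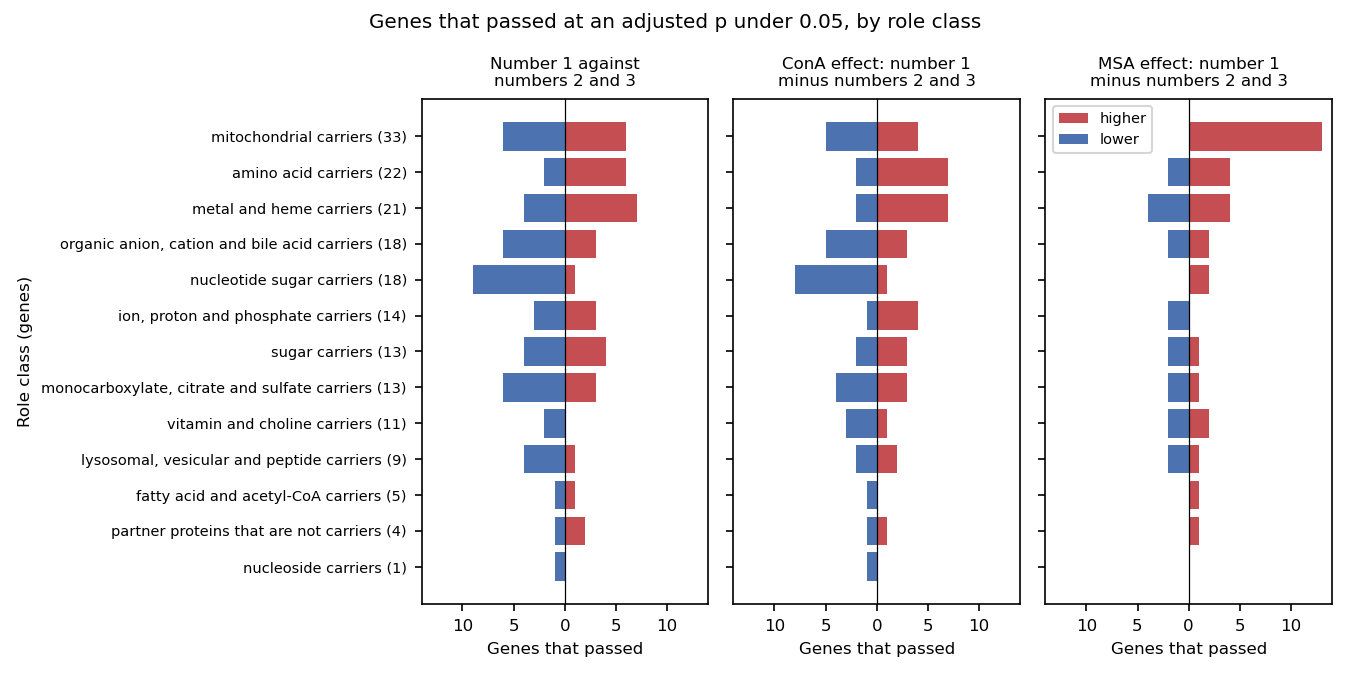
Bars count the genes that passed at an edgeR adjusted p under 0.05 in each role class, to the right for higher and to the left for lower, in number 1 against numbers 2 and 3 (left panel) and for the difference in the ConA effect (middle) and the MSA effect (right). Of the 33 mitochondrial carriers, 13 passed upward and 0 downward in the right panel (percent_called 8.61 and 10.1 over all genes). Among the 18 Slc35 genes, labelled nucleotide sugar carriers by family name, 8 passed downward and 1 upward in the middle panel (percent_called 15.4 and 15.6). These classes are named because their counts were among the most uneven, and they were picked after the values were seen.

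Among the 18 carriers of organic anions, cations and bile acids, 17 were tested, and 3 were higher and 6 lower in number 1. The ConA effect was higher in number 1 for 3 of them and lower for 5. For these and the class counts below, percent_called over all genes was 19.1 higher and 19.2 lower by number. It was 15.6 and 15.4 for the ConA effect and 8.61 and 10.1 for the MSA effect. Slco1b2, the main importer of bile acids, bilirubin and statins on the blood side of mouse hepatocytes, measured 275, 784 and 1094 CPM in Control, 206, 1129 and 1739 CPM in ConA and 136, 1747 and 1461 CPM in MSA_ConA. Every library numbered 1 lay below all the others, with a log2 difference by number of -2.65 (SE 0.39, edgeR adjusted p = 0.00218). Its neighbour Slco1a4 measured 58.8, 272 and 271 CPM in Control, 23, 260.1 and 328 CPM in ConA and 35.3, 308 and 292 CPM in MSA_ConA and differed by -2.95 (SE 0.31, edgeR adjusted p = 0.000768), again low in number 1. Slco1a1, which lies beside Slco1a4 on chromosome 6 and carries steroid conjugates, went the other way at 243, 8.14 and 40.8 CPM in Control, 167, 33.6 and 26.9 CPM in ConA and 308, 106 and 12.6 CPM in MSA_ConA. Its libraries numbered 1 were the highest of their groups, with a difference of 2.74 (SE 0.64, edgeR adjusted p = 0.0117). Among numbers 2 and 3 its values ran from 8.14 to 106 CPM, a wide spread within the groups.

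The organic anion carrier Slc22a7 measured 75.6, 35.8 and 34.1 CPM in Control, 46.9, 24.3 and 18.1 CPM in ConA and 57.2, 35 and 15.3 CPM in MSA_ConA and was higher in number 1, with a log2 difference of 1.15 (SE 0.25, edgeR adjusted p = 0.00929) that did not pass with library totals. Slc22a26 measured 0.223, 125 and 134 CPM in Control, 2.62, 152 and 154 CPM in ConA and 0, 177 and 131 CPM in MSA_ConA, close to absent in number 1 and at 125 CPM or more elsewhere, with a difference of -7.57 (SE 0.87, edgeR adjusted p = 0.00096). Genes near it are close copies that can share reads, so its values are uncertain. In the ConA effect Slc47a1, which exports organic cations into bile, was lower in number 1, with a log2 difference of -1.85 (SE 0.35, edgeR adjusted p = 0.00834) and levels of 269.97, 293 and 209.7 CPM in Control, 63.3, 208 and 218 CPM in ConA and 64, 246 and 201 CPM in MSA_ConA. Slc10a5, an orphan relative of the bile acid carriers, measured 11.2, 21.5 and 40.9 CPM in Control, 1.16, 40.3 and 56.3 CPM in ConA and 0.922, 62.5 and 34.8 CPM in MSA_ConA. Its log2 difference by number was -3.60 (SE 0.88, edgeR adjusted p = 0.0142), with an edgeR adjusted p of 0.0603 without ConA 1 and 0.0548 without MSA_ConA 1.

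Slco3a1 was high in ConA 1 alone, at 2.98, 4.38 and 3.07 CPM in Control, 58.8, 4.12 and 3.29 CPM in ConA and 5.27, 3.1 and 6.49 CPM in MSA_ConA. Its difference in the ConA effect was 4.30 (SE 0.66, edgeR adjusted p = 0.00399) and in the MSA effect -3.85 (SE 0.65, edgeR adjusted p = 0.00953). Without ConA 1 its log2 fold change between MSA_ConA and ConA turned from -2.15 to 0.41. Slc10a6, a carrier of sulfated steroids, measured 0.0745, 0 and 0.208 CPM in Control, 59.7, 0.103 and 0.284 CPM in ConA and 47.3, 0 and 0.103 CPM in MSA_ConA. It did not pass the expression filter, so it has no test, and its 2 high libraries made up nearly all of its counts. The ratio of ConA 1 to Control 1, 802-fold (143 to 31719), rests on 1 count in Control 1 and its interval covers counting error only, as do all intervals for single libraries here.

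Glucose carriers of 2 kinds moved apart. Of the 13 sugar carriers, 4 were higher and 4 lower in number 1. Slc2a2, the low-affinity glucose carrier of hepatocytes, measured 133, 349 and 423 CPM in Control, 72, 422 and 567 CPM in ConA and 71.9, 464 and 388 CPM in MSA_ConA. Its libraries numbered 1 were the lowest, with a difference by number of -2.26 (SE 0.30, edgeR adjusted p = 0.00159) and in the ConA effect of -1.24 (SE 0.35, edgeR adjusted p = 0.0339). Slc2a1, the glucose carrier of most other cells, measured 16.8, 7.51 and 12.1 CPM in Control, 591, 10.05 and 9.59 CPM in ConA and 205, 9.57 and 8.96 CPM in MSA_ConA. It was 35.3-fold (30.9 to 40.5) higher in ConA 1 than in Control 1 and 2.89-fold (2.73 to 3.05) lower in MSA_ConA 1 than in ConA 1. The ConA effect differed by 5.14 (SE 0.40, edgeR adjusted p = 0.00038) and the MSA effect by -1.45 (SE 0.38, edgeR adjusted p = 0.0373), and the latter had an edgeR adjusted p of 0.0827 without ConA 2, 0.101 without ConA 3 and 0.0673 without MSA_ConA 2.

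Slc37a1, a phosphate-linked carrier of the endoplasmic reticulum, measured 8.12, 2.61 and 2.03 CPM in Control, 104, 1.65 and 1.59 CPM in ConA and 94.4, 2.43 and 2.01 CPM in MSA_ConA, with a difference in the ConA effect of 4.20 (SE 0.32, edgeR adjusted p = 0.00035). Its relative Slc37a4, which hands glucose 6-phosphate to glucose 6-phosphatase, stayed between 156 and 237 CPM in all libraries, at 159.6, 217 and 237 CPM in Control, 228, 194 and 199 CPM in ConA and 156, 177 and 180.4 CPM in MSA_ConA. Its ConA effect differed by 0.72 (SE 0.24, edgeR adjusted p = 0.0541), which did not pass. The myo-inositol carrier Slc5a3 had no count in MSA_ConA 1 and 3.88 CPM in ConA 1, so its fitted MSA difference depends on the prior count and is no bound.

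Of the 22 amino acid carriers, the ConA effect was higher in number 1 for 7 and lower for 2. With library totals 2 passed upward and 4 downward, so the direction of this split turns with the scaling. Slc3a2, the heavy chain that brings several amino acid exchangers to the surface, measured 47.8, 48.8 and 54.4 CPM in Control, 209, 47.1 and 44.4 CPM in ConA and 99.6, 36.6 and 35.6 CPM in MSA_ConA and its ConA effect differed by 2.30 (SE 0.24, edgeR adjusted p = 0.00102). Slc7a6, a light chain that pairs with it, measured 0.745, 0.626 and 0.416 CPM in Control, 67.6, 2.11 and 1.19 CPM in ConA and 97.3, 0.553 and 3.91 CPM in MSA_ConA. Its ConA effect differed by 4.83 (SE 1.47, edgeR adjusted p = 0.043), but the edgeR adjusted p was 0.0593 with library totals and 0.0577 to 0.165 when single ConA or Control libraries of numbers 2 and 3 were left out. By number it differed by 4.52 (SE 0.90, edgeR adjusted p = 0.00645), with an edgeR adjusted p of 0.0508 without ConA 1 and 0.0568 without MSA_ConA 1. The cationic amino acid carrier Slc7a2 measured 155, 354 and 293 CPM in Control, 721, 309 and 505 CPM in ConA and 1070.3, 367 and 199 CPM in MSA_ConA, with a difference of 1.89 (SE 0.58, edgeR adjusted p = 0.0445) in the ConA effect that did not pass with library totals. MSA_ConA 1 had the highest value of this gene and ConA 1 the next.

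Slc38a2, the stress-inducible carrier of small neutral amino acids, measured 102, 99.9 and 110.2 CPM in Control, 296, 135 and 142 CPM in ConA and 1812, 128 and 111 CPM in MSA_ConA. Its MSA effect differed by 2.83 (SE 0.27, edgeR adjusted p = 0.00123), and MSA_ConA 1 was 6.12-fold (5.88 to 6.36) above ConA 1. The ConA effect differed by 1.15 (SE 0.26, edgeR adjusted p = 0.0167), with edgeR adjusted p of 0.0694 with library totals, 0.0623 without ConA 2, 0.0568 without ConA 3 and 0.059 without Control 3. Its liver relative Slc38a4 measured 637, 839.99 and 833 CPM in Control, 847, 745 and 1094 CPM in ConA and 3092, 1024 and 675 CPM in MSA_ConA, with a difference in the MSA effect of 1.98 (SE 0.45, edgeR adjusted p = 0.0252). That call was lost at an edgeR adjusted p of 0.0527 without Control 2, 0.0645 without Control 3 and 0.0726 without ConA 3. Slc38a3, the glutamine carrier, measured 2314, 2377 and 2389.7 CPM in Control, 1195, 2171 and 2106 CPM in ConA and 2113, 1953 and 1508 CPM in MSA_ConA, low in ConA 1, with a difference in the MSA effect of 1.13 (SE 0.32, edgeR adjusted p = 0.0475). That call was not kept with library totals.

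Slc6a6, which imports taurine for bile acid conjugation, measured 69.2, 108 and 139 CPM in Control, 169, 155 and 138 CPM in ConA and 20.9, 138 and 124 CPM in MSA_ConA. MSA_ConA 1 was 8.08-fold (6.87 to 9.57) below ConA 1 and the MSA effect differed by -2.85 (SE 0.31, edgeR adjusted p = 0.00215). Its ConA effect differed by 1.04 (SE 0.30, edgeR adjusted p = 0.0354), with an edgeR adjusted p of 0.178 with library totals and 0.0671 to 0.107 without Control 3, ConA 2 or ConA 3. Slc1a2, a glutamate carrier, measured 155, 147 and 167 CPM in Control, 230.3, 186 and 207 CPM in ConA and 319, 167 and 153 CPM in MSA_ConA, with the ConA libraries all above the controls but a log2 difference by number of 0.42 (SE 0.22, edgeR adjusted p = 0.157). The glutamine exchanger Slc1a5 was scarce and uneven at 16.2, 2.5 and 1.25 CPM in Control, 28.3, 9.94 and 1.7 CPM in ConA and 6.58, 1.22 and 13.1 CPM in MSA_ConA. Slc16a10, which carries aromatic amino acids, measured 64, 139.5 and 163 CPM in Control, 94.6, 162 and 203 CPM in ConA and 141, 198 and 133 CPM in MSA_ConA and was lower in number 1, with a log2 difference of -0.79 (SE 0.25, edgeR adjusted p = 0.0392).

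**Figure D4:**
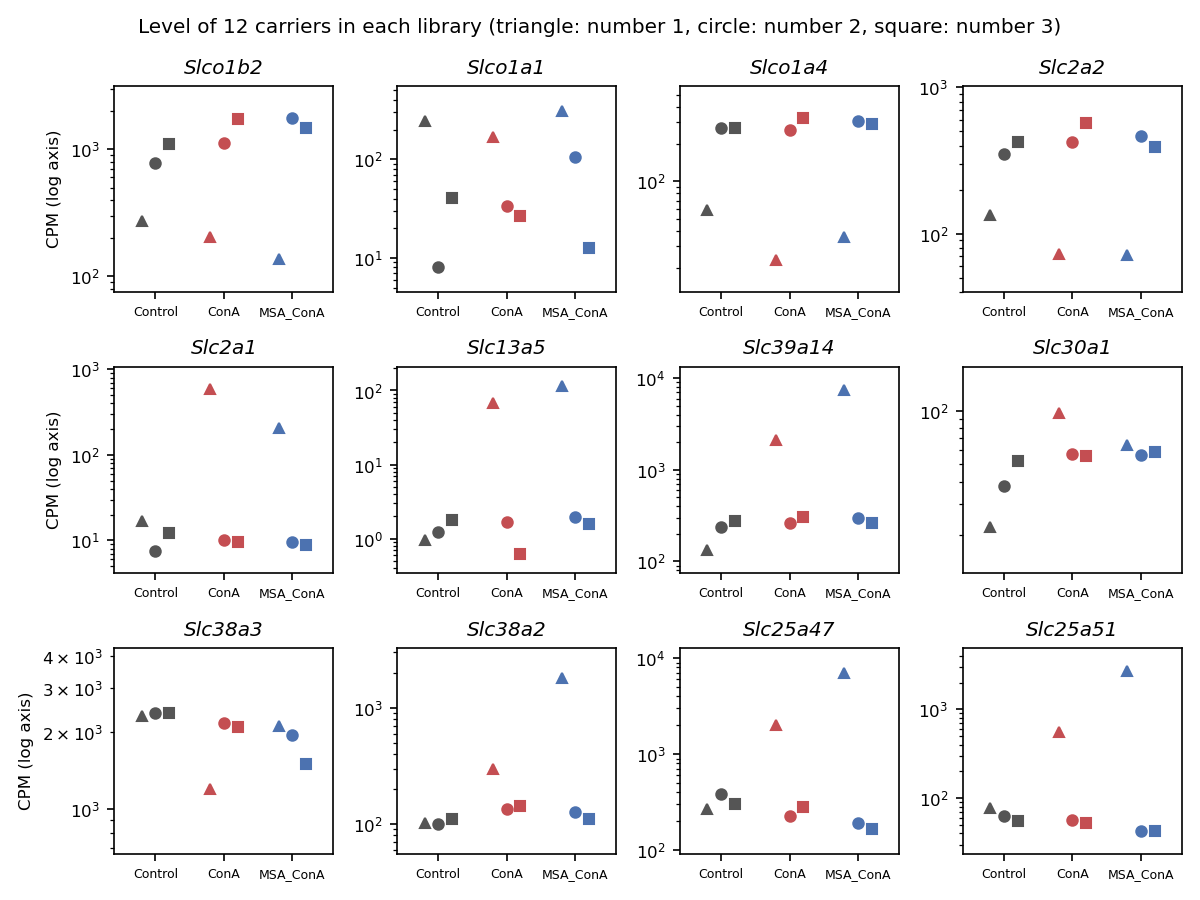
CPM on log axes of 12 carriers in each of the 9 libraries, by group, with triangles for number 1, circles for number 2 and squares for number 3. Triangles sit apart from the other symbols in most panels: below them for Slco1b2, Slco1a4 and Slc2a2, and above them in ConA and MSA_ConA for Slc2a1, Slc13a5, Slc39a14, Slc38a2, Slc25a47 and Slc25a51.

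Of the 13 carriers of monocarboxylates, citrate and sulfate, 3 were higher and 6 lower in number 1. Slc13a5, the citrate importer, measured 0.968, 1.25 and 1.77 CPM in Control, 68.2, 1.7 and 0.624 CPM in ConA and 115, 1.99 and 1.6 CPM in MSA_ConA. It was at or under 1.99 CPM in all libraries but ConA 1 and MSA_ConA 1. The ConA effect differed by 6.48 (SE 0.70, edgeR adjusted p = 0.00115), and ConA 1 was 70.5-fold (41 to 133) above Control 1. Its difference by number, 4.88 (SE 1.09, edgeR adjusted p = 0.0103), had an edgeR adjusted p of 0.0868 without ConA 1 and 0.0981 without MSA_ConA 1. The lactate carrier Slc16a1 measured 33.9, 39.6 and 59.4 CPM in Control, 147, 57 and 57.7 CPM in ConA and 119, 73.6 and 77.1 CPM in MSA_ConA, with a difference in the ConA effect of 1.90 (SE 0.35, edgeR adjusted p = 0.00757). Slc13a3, a dicarboxylate carrier, measured 22.9, 20.4 and 37 CPM in Control, 58, 31.7 and 20.4 CPM in ConA and 61, 29.5 and 17.7 CPM in MSA_ConA and did not pass for the ConA effect, with 1.48 (SE 0.63, edgeR adjusted p = 0.111).

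Slc16a12, which carries creatine, measured 17.8, 93.1 and 130.5 CPM in Control, 8.33, 119 and 141 CPM in ConA and 8.56, 139.7 and 107 CPM in MSA_ConA and was lower in number 1, with a log2 difference of -3.44 (SE 0.34, edgeR adjusted p = 0.000575). All 3 libraries numbered 1 were under 18 CPM and the 6 others over 93 CPM. The sulfate carrier Slc26a1 measured 157, 221 and 273 CPM in Control, 79.5, 249 and 218 CPM in ConA and 25.5, 239 and 204 CPM in MSA_ConA, with a difference by number of -1.64 (SE 0.42, edgeR adjusted p = 0.0173) and in the MSA effect of -1.56 (SE 0.31, edgeR adjusted p = 0.0167). Slc26a2, another sulfate carrier and the gene at the edge of the count rule, measured 4.24, 5.58 and 6.7 CPM in Control, 1.74, 8.96 and 7.72 CPM in ConA and 0.395, 8.07 and 7.11 CPM in MSA_ConA. Slc16a6 measured 14.5, 7.93 and 11.1 CPM in Control, 104, 7.68 and 6.47 CPM in ConA and 41.1, 8.57 and 11.3 CPM in MSA_ConA, high in ConA 1 and next in MSA_ConA 1. Slc16a5 measured 6.33, 48.7 and 40.01 CPM in Control, 0.678, 36.6 and 29.7 CPM in ConA and 8.96, 33.1 and 31.9 CPM in MSA_ConA, and its ConA 1 value rests on few counts.

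Metal carriers held the acute-phase member of the family. Of 21, 7 were higher and 4 lower in number 1, and the ConA effect was higher in number 1 for 7 and lower for 2. With library totals 5 were higher and 4 lower. Slc39a14, the importer of zinc, iron and manganese, measured 134, 239 and 275 CPM in Control, 2091, 263 and 304 CPM in ConA and 7374, 294 and 263 CPM in MSA_ConA. It was 15.6-fold (14.8 to 16.3) higher in ConA 1 than in Control 1, and MSA_ConA 1 was 3.53-fold (3.47 to 3.58) above ConA 1. The ConA effect differed by 3.82 (SE 0.31, edgeR adjusted p = 0.000457) and the MSA effect by 1.85 (SE 0.30, edgeR adjusted p = 0.00847). In numbers 2 and 3 its values stayed between 239 and 304 CPM.

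Slc30a1, which exports zinc, measured 22.2, 38 and 52.5 CPM in Control, 97.4, 57 and 55.7 CPM in ConA and 64.5, 56.5 and 58.6 CPM in MSA_ConA. All libraries of ConA and MSA_ConA were above all controls, and the ConA effect differed by 1.82 (SE 0.31, edgeR adjusted p = 0.00579). The manganese exporter Slc30a10 measured 69.4, 36.8 and 57.3 CPM in Control, 43.1, 65 and 66.7 CPM in ConA and 176, 64.3 and 81.1 CPM in MSA_ConA, with a difference in the MSA effect of 1.88 (SE 0.40, edgeR adjusted p = 0.0199) and an edgeR adjusted p of 0.0561 without ConA 3. Slc31a1, the copper importer, measured 174, 208 and 263 CPM in Control, 72.8, 275 and 285 CPM in ConA and 78.9, 298 and 243 CPM in MSA_ConA, with libraries ConA 1 and MSA_ConA 1 lowest and a difference in the ConA effect of -1.51 (SE 0.31, edgeR adjusted p = 0.0114). The iron importer Slc11a2 measured 54.3, 23.5 and 34.3 CPM in Control, 238, 32.8 and 30.7 CPM in ConA and 30.3, 35 and 27.8 CPM in MSA_ConA, high in ConA 1 alone, with differences of 2.00 (SE 0.37, edgeR adjusted p = 0.00747) in the ConA effect and -2.96 (SE 0.38, edgeR adjusted p = 0.0037) in the MSA effect. Slc11a1, the phagosomal metal carrier of macrophages, measured 14.7, 10.6 and 6.08 CPM in Control, 30.9, 7.47 and 6.87 CPM in ConA and 8.16, 8.57 and 6.18 CPM in MSA_ConA. Its difference in the MSA effect was -1.96 (SE 0.53, edgeR adjusted p = 0.0425), and Kupffer cell markers summed to 185 CPM in ConA 1, 116 in MSA_ConA 1 and 170.5 to 327 in the 7 others. These markers did not move together. In ConA 1 Marco was at its highest, 59.2 CPM, while Clec4f (51.5 CPM), Vsig4 (6.59 CPM) and Timd4 (2.91 CPM) were at their lowest. Cd5l, at 64.9 CPM there, was neither. Their part in the result was not tested.

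Slc41a2, a magnesium carrier, measured 22.3, 4.22 and 6.96 CPM in Control, 182, 9.94 and 6.7 CPM in ConA and 249.8, 9.73 and 7.26 CPM in MSA_ConA and was higher in number 1, with a log2 difference of 3.99 (SE 0.49, edgeR adjusted p = 0.00124). The copy of the zinc importer Slc39a1 in the table lies on chromosome 2 at 29301450 to 29309189, whereas RefSeq places Slc39a1 on chromosome 3, so the row may hold another copy and it is counted in the class totals but not described. The other 181 genes were on the same chromosome in both.

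Mitochondrial carriers formed the largest class, with 33 genes. In number 1 against numbers 2 and 3, 6 were higher and 6 lower, and the ConA effect was higher in number 1 for 4 and lower for 5, with 22 of 33 negative and a median log2 difference of -0.58. For the MSA effect 13 were higher and 0 lower, with 26 of 33 positive and a median log2 difference of 0.82. Over all genes these medians were -0.09 and -0.01, and percent_called for the MSA effect was 8.61 higher and 10.1 lower. Both effects share ConA 1. Library totals left 10 higher and 0 lower with a median of 0.54.

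Slc25a47 measured 268, 388 and 301 CPM in Control, 2029.8, 226 and 279.6 CPM in ConA and 7094, 190.5 and 165 CPM in MSA_ConA. MSA_ConA 1 was 3.5-fold (3.44 to 3.55) above ConA 1, which was 7.58-fold (7.32 to 7.86) above Control 1. The ConA effect differed by 3.37 (SE 0.36, edgeR adjusted p = 0.00114) and the MSA effect by 2.31 (SE 0.35, edgeR adjusted p = 0.00694). The NAD+ carrier Slc25a51 measured 76.9, 63.1 and 54.8 CPM in Control, 552, 56.6 and 51.9 CPM in ConA and 2730.4, 42.7 and 42.4 CPM in MSA_ConA, with differences of 2.97 (SE 0.27, edgeR adjusted p = 0.000649) and 2.65 (SE 0.27, edgeR adjusted p = 0.00161) in the same order. Slc25a42, which carries coenzyme A, measured 83.8, 83.3 and 74.3 CPM in Control, 21.7, 54.8 and 67.4 CPM in ConA and 407, 68.2 and 52.7 CPM in MSA_ConA. It was lowest in ConA 1 and highest in MSA_ConA 1, which stood 18.7-fold (16.4 to 21.6) above it, and the MSA effect differed by 4.24 (SE 0.34, edgeR adjusted p = 0.000621). Its ConA effect differed by -1.58 (SE 0.33, edgeR adjusted p = 0.0118). Slc25a45 was also lowest in ConA 1, at 62.5, 32.3 and 34.4 CPM in Control, 3.49, 26.9 and 26.3 CPM in ConA and 10.01, 24.3 and 22.3 CPM in MSA_ConA, with a difference in the ConA effect of -3.83 (SE 0.26, edgeR adjusted p = 0.000267).

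Carriers of the urea cycle and of fatty acid oxidation belong to the same class. The ornithine carrier Slc25a15 measured 268, 349 and 426 CPM in Control, 183, 396 and 395 CPM in ConA and 571, 443 and 331 CPM in MSA_ConA, with a difference in the MSA effect of 1.68 (SE 0.33, edgeR adjusted p = 0.0163). Slc25a13, the aspartate-glutamate carrier of hepatocytes, measured 94, 241 and 301 CPM in Control, 76.4, 275 and 320.5 CPM in ConA and 112, 311 and 251 CPM in MSA_ConA and was lower in number 1, with a log2 difference of -1.60 (SE 0.22, edgeR adjusted p = 0.00172). The carnitine-acylcarnitine carrier Slc25a20 measured 139.5, 111 and 104 CPM in Control, 82.2, 94.6 and 91.8 CPM in ConA and 177, 96.9 and 90.6 CPM in MSA_ConA, with a difference in the MSA effect of 1.10 (SE 0.23, edgeR adjusted p = 0.0207). Slc25a25, a calcium-regulated carrier of adenine nucleotides, measured 202, 84.2 and 76.7 CPM in Control, 708, 155 and 81.8 CPM in ConA and 1565, 26.6 and 84.8 CPM in MSA_ConA and was higher in number 1, with a log2 difference of 3.12 (SE 0.65, edgeR adjusted p = 0.0077). Slc25a34, whose substrate is not settled, measured 10.3, 11.8 and 9.92 CPM in Control, 4.36, 10.05 and 7.04 CPM in ConA and 23.3, 7.74 and 13.3 CPM in MSA_ConA and its difference of 2.12 (SE 0.55, edgeR adjusted p = 0.0384) did not pass with library totals. At the other end Slc25a26 measured 7.15, 7.04 and 6.44 CPM in Control, 6.01, 6.08 and 5.79 CPM in ConA and 5.93, 5.42 and 6.59 CPM in MSA_ConA, with no call in any test.

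The class of fatty acid and acetyl-CoA carriers counted 5 genes. Slc27a2, an acyl-CoA ligase of very long chains, measured 923, 1097 and 1307 CPM in Control, 1064, 1136 and 1327 CPM in ConA and 2840.5, 1140.5 and 1075 CPM in MSA_ConA, and its MSA effect differed by 1.57 (SE 0.30, edgeR adjusted p = 0.0151). Slc27a5, which activates bile acids, measured 988, 614 and 701 CPM in Control, 1744, 627 and 631 CPM in ConA and 1421, 724 and 518 CPM in MSA_ConA and was higher in number 1, with a log2 difference of 1.10 (SE 0.22, edgeR adjusted p = 0.00704), a call not kept with library totals.

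Among 9 lysosomal, vesicular and peptide carriers 1 was higher and 4 lower in number 1. Slc15a3, a peptide carrier of lysosomes in immune cells, measured 6.03, 4.9 and 4.16 CPM in Control, 65.2, 3.4 and 3.52 CPM in ConA and 9.61, 3.48 and 3.45 CPM in MSA_ConA, with differences of 3.82 (SE 0.33, edgeR adjusted p = 0.000544) in the ConA effect and -2.76 (SE 0.33, edgeR adjusted p = 0.0028) in the MSA effect. Neutrophil and monocyte markers summed to 373 CPM in ConA 1, 47.8 CPM in MSA_ConA 1 and 2.54 to 5.56 CPM in the 7 others. In ConA 1 the sum was S100a9 at 261 CPM and S100a8 at 111 CPM, while the monocyte marker Ccr2 was at 0.872 CPM, its lowest value. Their part in this result was not tested. Slc17a1 to Slc17a4 lie side by side on chromosome 13 between 22032919 and 22144998 in the C57BL/6NJ coordinates of the table. Slc17a2 measured 174, 251 and 254 CPM in Control, 361, 223 and 263 CPM in ConA and 104, 234 and 185 CPM in MSA_ConA and was highest in ConA 1. Slc17a3 measured 135, 89.1 and 96 CPM in Control, 33.7, 92.4 and 99.98 CPM in ConA and 25.4, 102 and 89.3 CPM in MSA_ConA, with a difference in the ConA effect of -2.06 (SE 0.26, edgeR adjusted p = 0.0019). Slc17a4 measured 28.1, 66.3 and 88.3 CPM in Control, 3.59, 81.7 and 100.2 CPM in ConA and 2.5, 94.6 and 81.4 CPM in MSA_ConA and differed by -3.20 (SE 0.38, edgeR adjusted p = 0.00162). Both were lowest in ConA 1 and MSA_ConA 1. For Slc17a2 that difference was 1.11 (SE 0.30, edgeR adjusted p = 0.0284), with an edgeR adjusted p of 0.123 with library totals and 0.0554 to 0.0902 without single libraries of ConA or Control. The vesicular glutamate carrier Slc17a8 measured 1.27, 10.1 and 14.7 CPM in Control, 1.36, 16 and 13.7 CPM in ConA and 1.05, 11.8 and 15.7 CPM in MSA_ConA and was lower in number 1, with a log2 difference of -3.46 (SE 0.30, edgeR adjusted p = 0.000382).

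Ion, proton and phosphate carriers counted 14 genes, with 3 higher and 3 lower in number 1 and a ConA effect higher in number 1 for 4 and lower for 1, with the same counts under library totals. The sodium-phosphate carrier Slc20a1 measured 29, 54.5 and 51 CPM in Control, 325, 49.3 and 51.1 CPM in ConA and 116, 46.3 and 49 CPM in MSA_ConA and its ConA effect differed by 3.56 (SE 0.24, edgeR adjusted p = 0.000267). The potassium-chloride carrier Slc12a4 measured 21.4, 16.3 and 18.6 CPM in Control, 130.3, 16.5 and 15.3 CPM in ConA and 107, 12.3 and 15.9 CPM in MSA_ConA, with a difference in the ConA effect of 2.74 (SE 0.29, edgeR adjusted p = 0.00112). Its relative Slc12a7 measured 400.2, 145 and 126 CPM in Control, 586, 109 and 123.2 CPM in ConA and 264, 120.4 and 98.5 CPM in MSA_ConA and was higher in number 1, with a log2 difference of 1.75 (SE 0.22, edgeR adjusted p = 0.00143).

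The Slc35 genes, classed here as nucleotide sugar carriers by family name and not by substrate, had more calls lower than higher. Of 18, 1 was higher (percent_called 19.1 over all genes) and 9 lower (19.2) in number 1. For the ConA effect 1 was higher (percent_called 15.6) and 8 lower (15.4). With library totals 0 were higher and 16 lower by number, and 0 and 9 for the ConA effect. That scaling called 44.8% and 37.6% of all genes, both directions together. Slc35d2 measured 53.8, 92.7 and 89.2 CPM in Control, 16.3, 99.3 and 109.6 CPM in ConA and 11.9, 104 and 86.9 CPM in MSA_ConA and its ConA effect differed by -1.92 (SE 0.27, edgeR adjusted p = 0.003). Slc35e2 measured 55.5, 61.2 and 55.1 CPM in Control, 12.7, 55.3 and 60.4 CPM in ConA and 13.3, 56 and 47.9 CPM in MSA_ConA, with a difference of -2.12 (SE 0.27, edgeR adjusted p = 0.00197). Slc35b4 measured 23.8, 37.7 and 46.7 CPM in Control, 4.75, 45.1 and 51.5 CPM in ConA and 5.004, 49.1 and 41.9 CPM in MSA_ConA and differed by -2.52 (SE 0.32, edgeR adjusted p = 0.00215). In all 3, ConA 1 and MSA_ConA 1 were the lowest libraries and did not overlap the others. Slc29a1, the only nucleoside carrier of the set, measured 255, 269 and 252 CPM in Control, 82.3, 202 and 195 CPM in ConA and 54.9, 199 and 173 CPM in MSA_ConA, with a difference of -1.24 (SE 0.25, edgeR adjusted p = 0.0109) in the ConA effect.

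Vitamin and choline carriers counted 11 genes, of which 0 were higher and 2 lower in number 1. Slc46a3, a lysosomal carrier related to the folate importer, measured 90.8, 87.6 and 89.8 CPM in Control, 25.8, 79.96 and 78.1 CPM in ConA and 22.1, 87.7 and 56.2 CPM in MSA_ConA, with a difference in the ConA effect of -1.65 (SE 0.37, edgeR adjusted p = 0.0156). Slc5a6, which carries biotin and pantothenate, measured 4.02, 33.2 and 31.5 CPM in Control, 6.69, 31.1 and 31.7 CPM in ConA and 15.4, 22.2 and 24.5 CPM in MSA_ConA. The scaffold Slc9a3r1, which anchors carriers at the apical membrane, led the partner proteins with 271, 193 and 184 CPM in Control, 897, 157 and 161 CPM in ConA and 513, 137 and 118 CPM in MSA_ConA and was higher in number 1, with a log2 difference of 1.76 (SE 0.32, edgeR adjusted p = 0.00471). Cholangiocyte markers summed to 782 CPM in ConA 1, of which Sox9 made up 635, to 116 CPM in MSA_ConA 1 and to 48.7 to 67.9 CPM in the others. Their part in these results was not tested.

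With 1 library per group, the libraries numbered 1 give ratios without a replicate check. ConA 1 was at least 4-fold above Control 1 for 23 of 181 genes (12.7%, with percent_called 5.89) and at least 4-fold below for 9 (4.97%, with percent_called 2.4), as ratios of CPM + 1 where one of the pair reached 10 CPM. The highest ratios among genes over a minimum of 50 CPM in one of the pair were those of Slc10a6 and of Slc7a6 at 90.8-fold (49.1 to 190.3), Slc13a5, Slc2a1 and Slco3a1 at 19.8-fold (14.3 to 27.9). The lowest were those of Slc25a45 at 17.9-fold (12.8 to 25.7) lower, Slc35e2 at 4.37-fold (3.62 to 5.3), Slc47a1 at 4.27-fold (3.92 to 4.64), Slc17a3 at 4.003-fold (3.57 to 4.5) and Slc25a42 at 3.86-fold (3.34 to 4.48). With library totals the counts became 14 and 16. The shares of this set and of all genes are not like for like. Slc13a5, Slc7a6, Slco3a1, Slc15a3 and Slc37a1, all at least 4-fold above, were under the rule's mean count in numbers 2 and 3. Number 1 therefore brought them into the set. The set was also chosen by a minimum summed count, which bears on how often 10 CPM is reached. How far this raised the shares was not tested.

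MSA_ConA 1 was at least 4-fold above ConA 1 for 6 genes (3.31%, with percent_called 1.64) and at least 4-fold below for 4 (2.21%, with percent_called 3.73). Above it stood Slc25a42, Slc38a2, Slc25a51 at 4.94-fold (4.8 to 5.09), Slc30a10 at 4.08-fold (3.66 to 4.55) and Slc38a4 at 3.65-fold (3.56 to 3.74). Below it stood Slco3a1 at 11.2-fold (8.1 to 15.8), Slc6a6, Slc11a2 at 7.87-fold (6.87 to 9.05), Slc15a3 at 6.78-fold (5.32 to 8.76) and Slc17a2 at 3.49-fold (3.23 to 3.77). MSA_ConA 1 was at least 4-fold above Control 1 for 23 genes (12.7%, with percent_called 4.53) and below for 10 (5.52%, with percent_called 3.01). Among them Slc39a14 was 54.8-fold (52.3 to 57.5) and Slc25a51 35.5-fold (33.3 to 37.8) above Control 1, and both were higher there than in ConA 1. The shares given for MSA_ConA 1 have the same limits, from membership and the minimum level, as those of ConA 1 against Control 1.

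**Figure D5:**
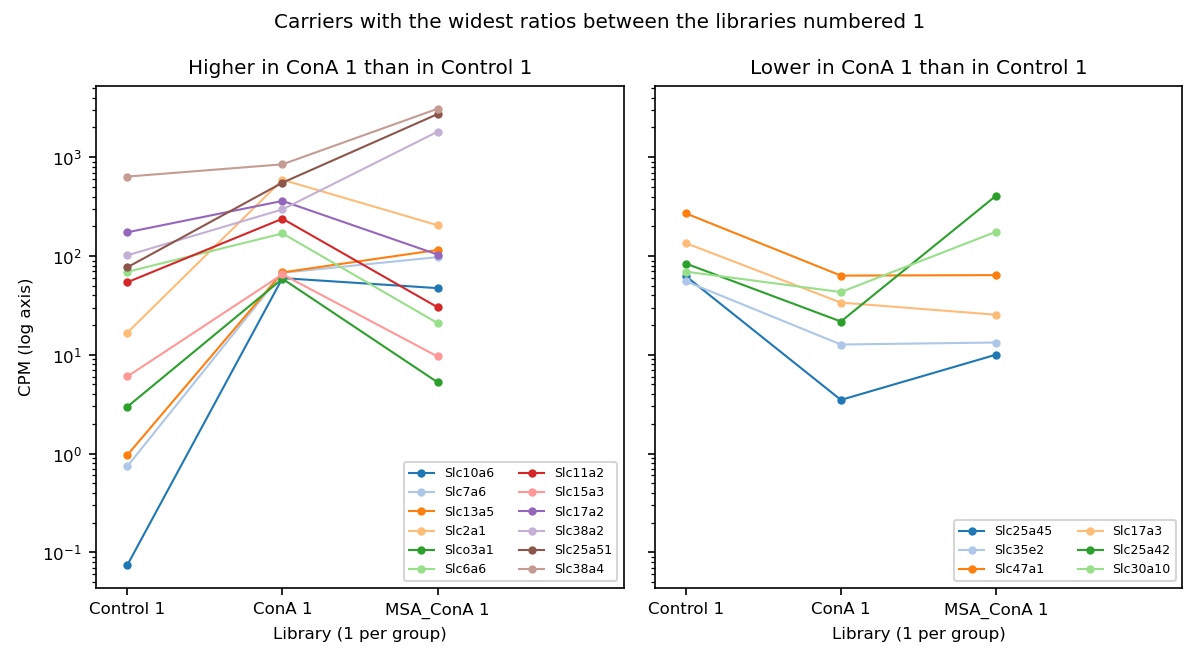
CPM on a log axis of 18 carriers with the highest and lowest ratios between the libraries numbered 1, joined by lines from Control 1 to ConA 1 to MSA_ConA 1, with 1 library per group and no error. The left panel holds the 12 that were higher in ConA 1 than in Control 1 and the right panel the 6 that were lower. Slco3a1, Slc6a6, Slc11a2, Slc15a3 and Slc17a2 come down in MSA_ConA 1, and Slc38a2, Slc25a51 and Slc38a4 go on rising.

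In the libraries numbered 2 and 3 alone, no gene passed in any of the 3 comparisons (percent_called 0 in each, over 14851 genes). At an unadjusted p under 0.05 there were 20 of 181 between ConA and Control (11.05%, against 11.7% of all genes), 7 between MSA_ConA and ConA (3.87%, against 5.27%) and 43 between MSA_ConA and Control (23.8%, against 24.2%). The smallest adjusted p among these genes by edgeR were 0.423, 0.929 and 0.0829. DESeq2 called 6 genes higher and 12 lower between MSA_ConA and Control, where it called 8.83% of all genes. The smallest adjusted p was that of Slc25a47, with a log2 fold change of -0.96 (DESeq2 adjusted p = 0.000145). The 6 higher genes included Slc2a4 at 5.48 and Slc25a4 at 3.87, both highest in MSA_ConA 3, as given next.

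Some carriers that muscle or fat express were highest in MSA_ConA 3, and those given here were chosen after their values were seen. Slc25a4, the ADP/ATP carrier of muscle, measured 8.79, 5.79 and 3.69 CPM in Control, 11.2, 22.6 and 7.26 CPM in ConA and 6.32, 13.9 and 125 CPM in MSA_ConA. Slc2a4, the insulin-responsive glucose carrier of muscle and fat, measured 0.521, 0.626 and 0.260 CPM in Control, 0.0969, 6.39 and 1.25 CPM in ConA and 0.132, 3.48 and 36.1 CPM in MSA_ConA. Slc25a12, which muscle uses in place of Slc25a13, measured 12.8, 15.8 and 16.9 CPM in Control, 21.2, 22.1 and 16.7 CPM in ConA and 33.3, 20.5 and 43.4 CPM in MSA_ConA. The 8 skeletal muscle markers summed to 4026 CPM in MSA_ConA 3, 284 in MSA_ConA 2, 266 in ConA 2, 47.9 in ConA 3, 121 in MSA_ConA 1, where Atp2a1 made up 119, 2.91 in ConA 1 and 0.727 to 1.88 in Control. Adipocyte markers summed to 491 CPM in MSA_ConA 1, where Cidec made up 442, 143 in ConA 1, 106 in MSA_ConA 3, 67.6 in ConA 2 and 7.95 to 15.3 in the 5 others. Their defining genes Adipoq and Plin1 were at 0 in all libraries numbered 1 and highest in MSA_ConA 3 and ConA 2. Their part in the values of these 3 carriers was not tested.

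Further lists of 3 kinds were measured beside these genes. Over all genes percent_called was 38.3 by number and 31 for the ConA effect, both directions together. Of 11 carriers in the table that lack the Slc or Slco prefix, 1 was higher and 3 lower in number 1, and the ConA effect was higher for 2 and lower for 1. The lysolipid carrier Mfsd2a of this list measured 8.19 CPM in Control 1, 128 CPM in ConA 1 and 1128 CPM in MSA_ConA 1, and 16.7 to 70.0 CPM in numbers 2 and 3. Of 12 tested subunits of the sodium pump, carrier partners and bile exporters, 4 were higher and 3 lower in number 1. Among them Bsg, the partner of the lactate carrier Slc16a1, measured 1910.3 CPM in ConA 1, 633 in MSA_ConA 1 and 637 in Control 1, and 243 to 446 CPM in numbers 2 and 3. Of 12 regulators of carrier genes, 2 were higher and 3 lower, and Nr0b2, which represses bile acid import, measured 86.3 CPM in Control 1, 1.65 in ConA 1, 1.84 in MSA_ConA 1 and 39.5 to 88.4 in the others. The metal-sensing factor Mtf1, one of the 3 lower regulators, measured 11.02 CPM in Control 1, 15.4 in ConA 1 and 11.3 in MSA_ConA 1. In numbers 2 and 3 it was at 19.2 to 23.6 CPM (edgeR adjusted p = 0.0112 by number).

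Promoter sequences were read for 136 of the 182 genes from RefSeq (GRCm38.p6), using the 250 bases before each start site. They are shown because the ConA effect of Slc30a1, Slc2a1, Slc20a1, Slc41a2 and Slc16a1 was higher in number 1 and that of Slc16a12 lower, and the genes printed were chosen after their values were seen. The metal response element core (TGCGCNC or TGCACNC, either strand) was in 36.8% of these 136 promoters and in 33.7% of 9844 promoters of tested genes. It was in 13 of 24 promoters of genes with a higher ConA effect in number 1 and in 6 of 29 with a lower one. In the same order the antioxidant response element core was in 8 and 7, the E-box in 2 and 4, the D-box in 0 and 1 and the ATF4 element in 0 and 0. No split by direction was made over all tested genes, so none of these splits can be called particular to carriers. Over the 136 and the 9844 promoters the antioxidant response element core (TGACNNNGC) was in 21.3% and 14.03%, the E-box (CACGTG) in 14.7% and 9.66%, the D-box (TTATGTAA) in 1.47% and 0.640% and the ATF4 element (TTGCATCA) in 1.47% and 0.752%. A match is a description of the letters and not a bound site. In the windows below, written 5′ to 3′ on the gene's strand, capitals mark the match.
Slc30a1, metal response element core on the opposite strand, chr1:191906717-191906765, plus strand: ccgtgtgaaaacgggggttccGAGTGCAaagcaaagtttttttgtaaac
Slc2a1, metal response element core on the opposite strand, chr4:119108528-119108576, plus strand: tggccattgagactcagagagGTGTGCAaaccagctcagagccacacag
Slc20a1, metal response element core on the opposite strand, chr2:129198736-129198772, plus strand: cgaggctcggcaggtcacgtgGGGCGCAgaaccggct
Slc41a2, antioxidant response element core, chr10:83337896-83337946, minus strand: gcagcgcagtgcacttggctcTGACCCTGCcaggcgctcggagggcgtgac
Slc16a1, E-box, chr3:104638443-104638490, plus strand: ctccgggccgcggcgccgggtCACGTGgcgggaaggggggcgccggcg
Slc16a12, D-box on the opposite strand, chr19:34747376-34747425, minus strand: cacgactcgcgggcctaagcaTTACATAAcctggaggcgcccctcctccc
The matches end 36, 189, 9, 99, 194 and 68 bases before the start sites of these 6 genes, in that order.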

How the data were processed

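Livers of 9 mice were sequenced as bulk RNA. The authors deposited raw counts per gene and FPKM values for the 9 libraries, per the file headers. The submitters' processing notes name the builds mm10 and mm8 and the aligner Bowtie 0.12.2, but gene identifiers and coordinates are those of C57BL/6NJ, and the counting program is not given in the sources used here. Groups came from the titles, and the M columns were read as MSA_ConA. The members and gene lists were chosen with earlier results of these data known. Genes named are a list of liver carriers, the 3 smallest p each way, the 5 largest differences by number, the 5 highest and lowest single-library ratios with at least 50 CPM, the highest mean FPKM of each role class and the edge of the count rule. Other genes named were chosen after their values were seen, and some that the rule names are not reported here.

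Counts were tested in R 4.3.3 with edgeR 4.0.16 (quasi-likelihood, trimmed mean of M values, filterByExpr), with Benjamini-Hochberg adjustment over all genes kept and a threshold of 0.05. DESeq2 1.42.0 and limma 3.58.1 on log2(FPKM + 1) or log2(FPKM + 0.1) were alternatives, as were other scalings and filters and leaving out each library. Scripts were tested on simulated data. A positive value of the ConA or MSA effect is a higher log2 ratio in number 1 than in numbers 2 and 3. Intervals of single-library ratios are exact 95% intervals and cover counting error only. Libraries of one number deviated from their group means together (r 0.479 to 0.713, 0.349 to 0.553 and 0.303 to 0.472 for numbers 1, 2 and 3), above the bound of 0.1. Numbers 2 and 3 did so with each other as well (0.313 to 0.681). The spread that enters each p-value is that among libraries, taken as 1 mouse each. Promoters were matched by symbol and chromosome with RefSeq.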

Additional observations from a re-analysis of the deposited data

Results flagged for a closer look

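These values are listed because the effect of ConA or of MSA differed between the libraries numbered 1 and those numbered 2 and 3 in the test of that difference, for genes with the highest and lowest ratios between the libraries numbered 1. They were picked for their size in number 1, which the test also uses. All are log2 differences, and sex, strain, time of day and handling cannot be told apart here. Slc13a5, Slc7a6, Slco3a1 and Slc15a3 were also under the mean count of the rule in numbers 2 and 3, so number 1 brought them into the set.

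For the ConA effect the carriers with a higher ratio in number 1 were the citrate importer Slc13a5 (6.48), the glucose carrier Slc2a1 (5.14), the amino acid exchanger Slc7a6 (4.83), the organic anion carrier Slco3a1 (4.30) and the lysosomal Slc15a3 (3.82). They went on with the NAD+ carrier Slc25a51 (2.97), the iron importer Slc11a2 (2.00), Slc38a2 (1.15), Slc17a2 (1.11) and the taurine carrier Slc6a6 (1.04). Lower in number 1 were Slc25a45 (-3.83), Slc35e2 (-2.12), Slc17a3 (-2.06), the cation exporter Slc47a1 (-1.85) and Slc25a42 (-1.58).

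For the MSA effect the carriers with a higher ratio in number 1 were the coenzyme A carrier Slc25a42 (4.24), Slc38a2 (2.83), Slc25a51 (2.65), Slc38a4 (1.98), the manganese exporter Slc30a10 (1.88) and Slc25a45 (1.71). Lower were Slco3a1 (-3.85), Slc11a2 (-2.96), Slc6a6 (-2.85), Slc15a3 (-2.76), Slc17a2 (-1.59) and Slc2a1 (-1.45). Both effects share the ConA libraries.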

How the results depend on the processing

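Of the settings tried on single named genes, 837 kept direction and side of the threshold, 42 lost the call, 5 gained it and 10 changed direction. With library totals, number 1 had 18 carriers higher and 83 lower (44.8% of all genes called). In the ConA effect 66 were lower (37.6% of all genes called in either direction). In that setting 13 carriers lay above and 92 below both others in every group, and the 4-fold counts of ConA 1 against Control 1 became 14 and 16. The shares over all genes for these last counts are not given here. That scaling turned Slc38a4 to -0.26 in the ConA effect and Slc13a5 to -0.12, Slc35e2 to -0.054 and Slc7a6 to -0.22 in the MSA effect. An adjusted p under 0.01 by edgeR left 17 higher and 27 lower by number, 23 and 18 for the ConA effect and 12 and 8 for the MSA effect, where 17.2%, 12.8% and 5.36% of all genes passed. With CPM + 5, 2 carriers were 4-fold below in ConA 1 against Control 1 and 3 above in MSA_ConA 1 against ConA 1. In numbers 2 and 3 without a filter, 1 carrier passed higher and 1 lower for ConA against Control, 2 and 1 for MSA_ConA against ConA and 9 and 5 for MSA_ConA against Control (1.28%, 1.21% and 5.81% of all genes). DESeq2 called 6 and 12 in the last (8.83%). In both settings the carriers called higher for MSA_ConA against Control included Slc2a4 and Slc25a4, which were highest in MSA_ConA 3.

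Leaving out single libraries gave 23 to 53 higher and 33 to 63 lower by number, and 16 to 31 higher and 11 to 17 lower for the MSA effect. In numbers 2 and 3 it gave 0 to 1 higher for MSA_ConA against ConA, and 0 to 7 higher and 0 to 1 lower for MSA_ConA against Control. Those calls came without MSA_ConA 2, where 1.02% and 3.21% of all genes passed. The arm is then MSA_ConA 3 alone, the library with the most muscle marker RNA, and is assumed to vary like the other groups. Slco3a1 ran from -2.65 to 0.41 for MSA_ConA against ConA, and in the MSA effect Slc13a5 ran from -0.76 to 0.68, Slc47a1 from -0.25 to 0.10 and Slc7a6 from -0.71 to 2.04. The replicate block changed no call, with 0 carriers called in the 3 group comparisons. The cause of these changes was not tested. Carriers with few counts in a library have wide errors.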
